A study of Rattus norvegicus with 2 samples.

Results

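The heat shock protein (Hsp) and J-domain protein (Dnaj) genes of immune cells from the infarcted rat heart were described here. Members were chosen by name alone: symbols that begin with Hspa, Hspb, Hspd, Hspe, Hsph, Hsp90, Dnaja, Dnajb or Dnajc in the deposited gene table. Of 26976 symbols, 73 matched, and 65 of these had at least 50 unique molecular identifiers (UMIs, each standing for 1 captured transcript end) over all cells. The 65 members comprised 24 Hsp symbols and 41 Dnaj symbols (4 Dnaja, 11 Dnajb, 26 Dnajc). Just inside the limit lay Hspb2 with 66 UMIs and Dnajb3 with 100, and just outside it Hspa12a with 28 and Hspa1l with 18. Hspbp1 and Hspbap1 match the names but encode proteins that bind heat shock proteins, and Hspb11 is also known as Ift25, a protein of ciliary transport. Hspa1b reads are uncertain, because Hspa1a (not analysed here) is a near-identical copy.

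The labels give 2 samples, each from left ventricles of wild-type rats with a myocardial infarction, taken 7 days after surgery with infarct and border zone together. The group MI had the infarction alone, and the group MI+PUR-hAESC also received the PUR-hAESC patch (hAESC: human amniotic epithelial stem cells). The labels used here do not give strain, sex, age or how many hearts went into a sample. Tissue was dissociated with enzymes (collagenase A, elastase) during incubation at 37 °C, and cells stained for the leukocyte protein CD45 were sorted and run on the 10x Genomics 3′ platform. The deposited matrix holds both samples as barcode suffixes 1 and 2, called library 1 and library 2 here, but which suffix is which group could not be established. No direction with or without the patch can therefore be read from the values below. With 1 library per group there was no replicate and no test.

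Library 1 held 14283 barcodes and 72506643 UMIs, and library 2 held 15666 barcodes and 82802439 UMIs, with 71 barcode sequences present in both. Cells were assigned by marker genes, none of them a member, to 7 leukocyte types with at least 200 cells per library. Neutrophil-gated cells numbered 3791 in library 1 and 1578 in library 2, macrophage-gated cells 1269 and 1265, classical monocyte-gated cells 678 and 327, and non-classical monocyte-gated cells 402 and 841. T-gated cells numbered 2219 and 3674, B-gated cells 719 and 1516, and natural killer (NK)-gated cells 1240 and 1983. Smaller gates held conventional dendritic cells (145 and 101), endothelial cells (101 and 39) and, in library 2 only, 708 thymocyte-like cells with at least 2 of Rag1, Rag2, Dntt and Ptcra, against 0 in library 1. Each of the 7 gates had at least 3 of its own markers among its 10 leading genes by fold and none of another type. Levels are given as CPM, the UMIs of a gene in a gate divided by all UMIs of that gate and multiplied by 1000000, and intervals are exact 95% intervals that cover counting error only. Because 3′ ends are counted, CPM values are not scaled to transcript length, and levels of different genes are not ranked against each other. Fewer transcripts per cell and fewer expressing cells in a gate cannot be told apart in such sums.

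Heat shock proteins are molecular chaperones that bind unfolded stretches of other proteins. HSP70 proteins (Hspa genes) hold and release client proteins as they split ATP, J-domain proteins (Dnaj genes) hand them clients and start the ATP cycle, and HSP110 proteins (Hsph1, Hspa4, Hspa4l) and other exchange factors reset it. HSP90 proteins (Hsp90aa1, Hsp90ab1) act on kinases and steroid receptors, small heat shock proteins (Hspb genes) keep unfolded proteins soluble without ATP, and Hspd1 with Hspe1 forms the folding chamber of mitochondria. Some members are made in every cell at all times, whereas others are switched on by heat, oxidants or unfolded protein through the factor Hsf1, which binds heat shock elements, inverted repeats of GAA. A separate set in the endoplasmic reticulum (ER), led by Hspa5 (BiP) and Hsp90b1 (GRP94), is controlled by ER stress response elements. Following this division, 9 members were grouped as stress-inducible cytosolic, 5 as constitutive cytosolic, 9 as ER and 10 as mitochondrial, and the other 32 were kept by family.

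To show how the groups differ upstream of their genes, the 250 bases before the gene start were searched in RefSeq promoters of rat build GRCr8, which held 52 of the 65 members among 33469 promoters. Not matched were Dnaja2, Dnajb4, Dnajc2, Dnajc8, Dnajc11, Dnajc12, Dnajc15, Dnajc22, Dnajc24, Hsp90aa1, Hspa1b, Hspb2 and Hspb11. The 3-unit heat shock element GAANNTTCNNGAA, searched on both strands, was found in 4 members (Hspa8, Hspd1, Hspe1, Hsph1), or 7.69%, against 0.663% of all promoters. The 2-unit form GAANNTTC, which the 3-unit form contains, was found in 12 members (23.1%), against 7.23% of all promoters, and in 5 of the 6 stress-inducible members that matched (Dnaja1, Dnajb1, Hspb1, Hspb8, Hsph1). The other 2-unit form, TTCNNGAA, was found in 7 members (13.5%), against 7.48%. The ER stress response element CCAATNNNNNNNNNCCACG was found in 3 members, all of the ER group (Hspa5, Hsp90b1, Dnajc3), against 0.0657% of all promoters. A match is a run of letters and not a measured binding site. Several members named in later results were searched and had no match to any of these motifs, among them Hsp90ab1, Hspa13, Dnajb9, Dnajb11, Dnajc9 and Dnajc1. The promoters below were picked among members with a match and do not stand for the others. They are printed 5′ to 3′ on the strand of the gene and end at the base before the gene start. Heat shock elements of 2 or more units are in capitals.
Hsph1 (chr12:10427248-10427367, plus strand): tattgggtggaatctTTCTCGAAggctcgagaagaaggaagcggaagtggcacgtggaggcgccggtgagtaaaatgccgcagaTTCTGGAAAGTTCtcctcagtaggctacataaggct
Hspb1 (chr12:26432302-26432440, minus strand): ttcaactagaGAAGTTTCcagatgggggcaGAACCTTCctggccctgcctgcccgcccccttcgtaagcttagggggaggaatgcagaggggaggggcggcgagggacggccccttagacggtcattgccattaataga
Dnaja1 (chr5:60638213-60638403, plus strand): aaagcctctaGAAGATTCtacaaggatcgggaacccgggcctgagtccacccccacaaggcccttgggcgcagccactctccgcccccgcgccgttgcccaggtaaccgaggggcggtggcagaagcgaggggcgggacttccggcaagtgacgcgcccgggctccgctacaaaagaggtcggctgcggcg
Dnajb1 (chr19:41431142-41431261, minus strand): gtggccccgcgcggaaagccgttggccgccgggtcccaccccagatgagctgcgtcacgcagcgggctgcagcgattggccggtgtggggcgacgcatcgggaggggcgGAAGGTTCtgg
Hspa8 (chr8:50080291-50080513, plus strand): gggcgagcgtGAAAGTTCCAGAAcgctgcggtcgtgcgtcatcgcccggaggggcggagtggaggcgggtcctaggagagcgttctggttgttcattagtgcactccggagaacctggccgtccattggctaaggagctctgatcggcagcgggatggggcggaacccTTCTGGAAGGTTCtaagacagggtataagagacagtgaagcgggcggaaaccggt

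Hspd1 and Hspe1, the partners of the mitochondrial folding chamber, lie head to head on chromosome 9 with 289 bases between their gene starts. The same 18 bases (chr9:64084262-64084279) gave the heat shock element of both, read on opposite strands, and are in capitals in both lines.
Hspd1 (chr9:64084038-64084287, minus strand): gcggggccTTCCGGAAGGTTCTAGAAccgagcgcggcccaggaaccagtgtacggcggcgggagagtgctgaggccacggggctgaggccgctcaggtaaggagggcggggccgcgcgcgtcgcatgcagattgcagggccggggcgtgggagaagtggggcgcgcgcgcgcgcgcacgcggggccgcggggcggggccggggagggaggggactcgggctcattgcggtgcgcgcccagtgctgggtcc
Hspe1 (chr9:64084207-64084326, plus strand): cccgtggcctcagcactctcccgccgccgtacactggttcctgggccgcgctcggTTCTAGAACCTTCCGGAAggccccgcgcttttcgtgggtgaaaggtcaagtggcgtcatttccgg

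In the ER group the capitals mark the ER stress response element, which stood once upstream of Hspa5 and Dnajc3 and on both strands upstream of Hsp90b1.
Hspa5 (chr3:38452896-38453015, plus strand): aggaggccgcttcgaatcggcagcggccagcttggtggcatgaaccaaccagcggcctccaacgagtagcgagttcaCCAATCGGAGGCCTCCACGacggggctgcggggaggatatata
Hsp90b1 (chr7:23012294-23012479, minus strand): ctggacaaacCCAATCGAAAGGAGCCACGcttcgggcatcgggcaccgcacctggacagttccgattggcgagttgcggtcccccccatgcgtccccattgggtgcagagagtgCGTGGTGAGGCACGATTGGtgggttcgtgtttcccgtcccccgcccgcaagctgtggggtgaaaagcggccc
Dnajc3 (chr15:102432524-102432666, plus strand): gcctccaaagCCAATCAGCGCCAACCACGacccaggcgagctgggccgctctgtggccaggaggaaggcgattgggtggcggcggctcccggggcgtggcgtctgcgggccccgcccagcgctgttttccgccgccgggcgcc

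Summed over all 65 members, 6 of the 7 leukocyte types lay close together and neutrophil-gated cells far below. The sum was 3052 CPM in neutrophil-gated cells of library 1 and 2592 CPM in library 2, or 0.305% and 0.259% of their UMIs. In the other 6 types the sum ran from 6888 CPM (B, library 2) to 8578 CPM (NK, library 2). The highest sum of all gates was that of endothelial-gated cells, with 10942 and 10375 CPM. The plot of levels by cell type shows that this order was not shared by all groups of members.

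**Figure D1:**
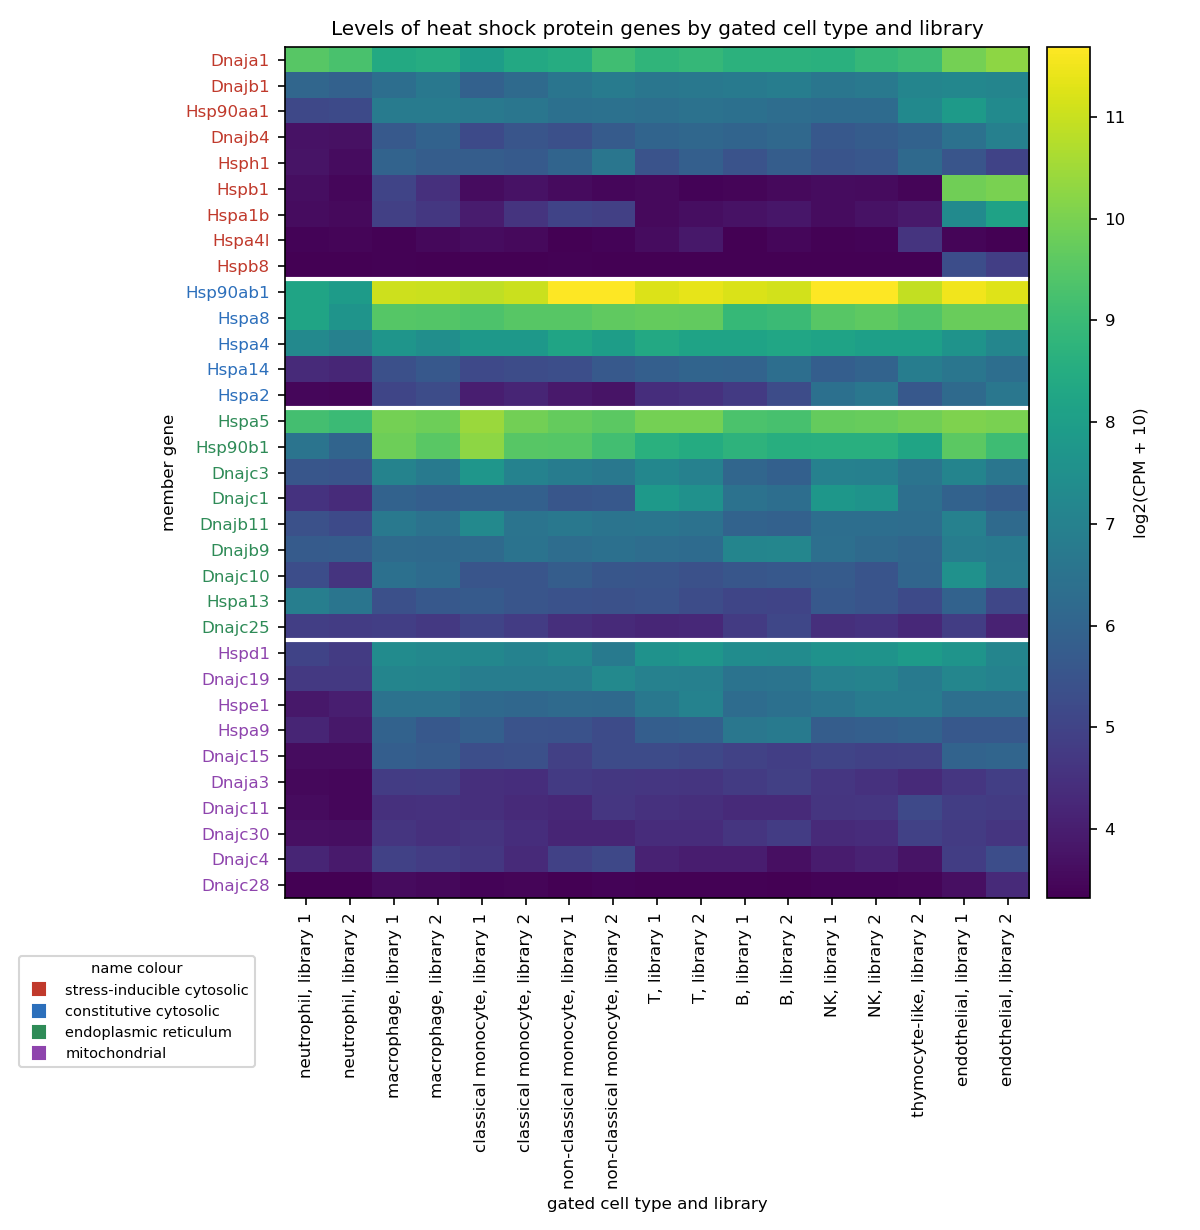
Levels of the 33 members in the 4 functional groups (rows, coloured by group) in each gated cell type and library (columns), as log2(CPM + 10) on the colour scale. Within a row, neutrophil columns are darker than those of the other 6 leukocyte types for Hsp90ab1, Hspa8, Hspd1 and Hspe1. They are brighter than those for Dnaja1 and Hspa13. Hspb1 and Hspa1b are brighter in endothelial-gated cells than in the leukocyte types.

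Of the 5 constitutive cytosolic members, Hsp90ab1, Hspa8, Hspa14 and Hspa4 were lower in neutrophil-gated cells than in each of the other 6 types. Hspa2, described with NK-gated cells below, is not compared here. Hsp90ab1, the HSP90 made in resting cells, stood at 289 CPM in neutrophil-gated cells of library 1 and 231 CPM in library 2. In the other 6 types it ran from 1893 CPM (classical monocyte, library 1) to 3289 CPM (non-classical monocyte, library 1), so the groups did not overlap. Hspa8, the constitutive HSP70 that also uncoats clathrin vesicles, had 285 and 192 CPM in neutrophil-gated cells and between 472 CPM (B, library 1) and 836 CPM (T, library 1) elsewhere. Hspa14, a ribosome-bound HSP70, had 9.81 and 8.61 CPM there and 26.3 to 71.9 CPM elsewhere. Hspa4, an HSP110 exchange factor, differed less, with 142 and 117 CPM in neutrophil-gated cells and 164 to 324 CPM elsewhere. As a sum, the median of the other 6 types was 4.72 times the neutrophil value in library 1 and 6.27 times in library 2.

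The mitochondrial members lay further apart. Hspd1 (HSP60) had 21.8 and 17.4 CPM in neutrophil-gated cells and 99.4 to 200.1 CPM in the other 6 types. Its partner Hspe1 (HSP10), which shares the promoter printed above, had 4.41 and 6.46 CPM there and 59.9 to 121 CPM elsewhere. Both genes of the divergent pair were thus lowest in neutrophil-gated cells in both libraries. Hspa9 (mortalin), the HSP70 of the mitochondrial import motor, had 8.27 and 4.70 CPM in neutrophil-gated cells, and Dnajc19, a J-protein of the same motor, had 16.4 CPM in each library. The median of the other 6 types was 7.18 and 8.55 times the neutrophil sum of this group.

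The ER members differed less, and not all in the same direction. Hsp90b1 had 83.7 and 54.2 CPM in neutrophil-gated cells and 343 to 1214 CPM elsewhere. Hspa5 had 573 and 511 CPM there and 597 to 1368 CPM elsewhere, so its lowest value in another type (B, library 2) lay above the neutrophil values by little. Hspa13, a microsomal HSP70, had its highest values in neutrophil-gated cells, at 110 and 85.3 CPM against 22.9 to 41.9 CPM in the other 6 types. The sum of the group in the other 6 types was 2.06 and 2.24 times that of neutrophil-gated cells.

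Among stress-inducible members, the neutrophil level depended on 1 gene. Dnaja1, a class A J-protein that serves cytosolic HSP70, had its highest leukocyte values in neutrophil-gated cells, with 723 and 611 CPM against 245 to 543 CPM elsewhere. Dnajb1, the J-protein most used as a sign of Hsf1 activity, had 57.5 and 50.7 CPM there and 50.2 to 106 CPM elsewhere, so the ranges overlapped. Hsph1 had 3.53 and 2.15 CPM, Dnajb4 3.42 and 2.94 CPM and Hsp90aa1 24.8 and 26.8 CPM in neutrophil-gated cells, all below every value of the other 6 types. The summed level of the group in the other 6 types was 0.77 and 1.01 times that of neutrophil-gated cells. Without Dnaja1, the same ratio was 2.75 and 3.34, which turned the direction in library 1.

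To count these differences, a member was called when CPM + 10 was at least 2-fold above or below the median of the other 6 types in both libraries. For calls below, 35 members with a mean of at least 20 CPM over the 7 types were considered, and 24 of them were below in neutrophil-gated cells, against 36.5% of all 5258 genes considered the same way. By group these were 5 of 5 mitochondrial, 3 of 4 constitutive cytosolic, 3 of 5 stress-inducible, 4 of 8 ER and 9 of 13 other members. The 9 included Dnajc8 (splicing), Dnajc9 (a histone chaperone), Dnajc21 (ribosome assembly), Dnajc2 (a ribosome-bound J-protein) and Dnaja2. Hspa13 was the 1 member of 35 called above in neutrophil-gated cells, against 9.39% of all genes, and this call was lost when ribosomal protein and mitochondrial genes were left out of the total. Dnajb6, which keeps aggregation-prone proteins soluble, had 135 and 141 CPM there and was not called.

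**Figure D2:**
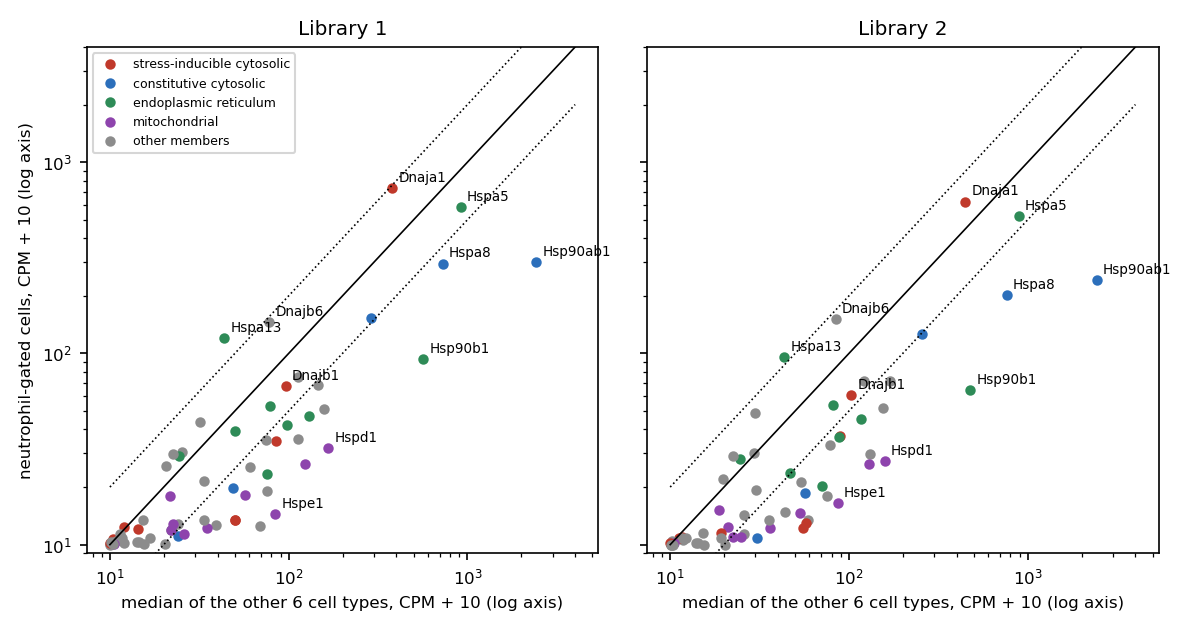
Each point is a member, with its level in neutrophil-gated cells (vertical, CPM + 10, log axis) against the median of the other 6 leukocyte types (horizontal, CPM + 10, log axis), for library 1 and library 2. The solid line marks equal levels and dotted lines 2-fold; the 24 members called below lie under the lower dotted line, while Dnaja1, Dnajb2, Dnajb6 and Hspa13 are among those above the solid line.

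Other properties of the neutrophil-gated cells moved with these levels. Ribosomal protein genes made up 1.57% and 1.81% of their UMIs, against 9.72% to 22.1% in the other 6 types. S100a8 and S100a9, which the gate itself required, made up 13.1% and 17.7% of their UMIs. With these 2 genes left out of the total, 22 of 35 members stayed at 2-fold or more below, against 32.0% of all genes. With ribosomal protein and mitochondrial genes left out, the count was 26 of 37, against 43.6%. Genes of the same pathway that are no members followed the same order: 22 of 32 were below by the same rule, including all 8 listed subunits of the cytosolic folding chamber CCT (Tcp1, Cct2, Cct3, Cct4, Cct5, Cct6a, Cct7 and Cct8) and the HSP70-HSP90 adaptor Stip1, at 8.82 and 8.22 CPM against 40.1 to 79.4 CPM. St13, an HSP70 cofactor, was above, at 109 and 147 CPM against 25.3 to 69.3 CPM, as was the stress factor gene Ddit3, at 856 and 1069 CPM against 81.9 to 336 CPM. The part of overall transcript makeup in the member levels was not tested.

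Members that were high in 1 or 2 lymphoid or myeloid types were few. NK-gated cells had 3 of 52 members above by the 2-fold rule, against 7.25% of all genes, and T-gated cells 1 of 55, against 5.51%. Hspa2, an HSP70 best known from male germ cells, had 74.8 and 89.7 CPM in NK-gated cells and at most 28.1 CPM in the other 6 types. Dnajc1, a J-protein of the ER membrane that binds ribosomes, had 220 and 179 CPM in T-gated cells and 203 and 186 CPM in NK-gated cells, against at most 78.4 CPM elsewhere. The T and NK values of Dnajc1 overlapped each other and none of the other types. Dnajb14, another ER membrane J-protein, had 54.1 and 48.2 CPM in NK-gated cells and at most 27.6 CPM elsewhere. Below the calling limit, Dnajc6 (auxilin, which works with Hspa8 on clathrin coats) had 5.67 and 10.9 CPM in NK-gated cells, while the 6 other types ran from 0 to 1.09 CPM.

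Macrophage-gated cells had 1 of 56 members above (7.5% of all genes) and non-classical monocyte-gated cells 2 of 48 (8.8%). Dnajc22 was above in both, with 19.9 and 20.2 CPM in macrophage-gated and 20.5 and 26.0 CPM in non-classical monocyte-gated cells, against 0 to 16.9 CPM in the other types, where classical monocyte-gated cells were highest. The other was Hspa1b, described below. Classical monocyte-gated cells had 0 of 49 members above (7.49%) and 1 of 35 below (3.23%): Dnajc9, with 19.5 and 26.9 CPM. B-gated cells had 0 of 46 above (10.4%). Members with their highest leukocyte value there in both libraries included Dnajb9, an ER J-protein of the unfolded protein response, with 131 and 133 CPM against 43.3 to 81.8 CPM elsewhere, and Hspa9, with 89.7 and 95.6 CPM against 4.70 to 51.4 CPM. No member was below in macrophage-gated (3.77% of all genes), non-classical monocyte-gated (2.51%), T-gated (8.35%), B-gated (10.5%) or NK-gated cells (7.97%).

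In some gates a single cell carried much of the Hspa1b count, and in others it did not. Hspa1b, the HSP70 that is nearly silent without stress, had 19.9 CPM (95% interval 17 to 23.1) in macrophage-gated cells of library 1 and 15.4 CPM in library 2. Non-classical monocyte-gated cells had 21.8 and 19.7 CPM and classical monocyte-gated cells 5.51 and 14.0 CPM. Neutrophil-, T-, B- and NK-gated cells had 1.55 to 4.32 CPM. Macrophage- and non-classical monocyte-gated cells were thus higher. Classical monocyte-gated cells of library 1 had 4.41 CPM without the cell that held 6 of their 30 UMIs, near the 4.32 CPM of B-gated cells of library 2. A single cell held 43 of the 173 UMIs of macrophage-gated cells in library 1. In library 2 a single cell held 16 of 34 UMIs of classical monocyte-gated cells, and another held 19 of 78 of non-classical monocyte-gated cells. In macrophage-gated cells of library 2 the cell with the most held 5 of 125 UMIs, which were spread over 89 cells. Without the cell with the most UMIs in each gate, macrophage-gated cells of library 1 had 14.95 CPM and classical monocyte-gated cells of library 2 had 7.45 CPM. Non-classical monocyte-gated cells then had 17.4 and 14.9 CPM against medians of 2.39 and 3.09 CPM in the other types. In CPM + 10, the scale of the call, this was 2.21-fold and 1.90-fold, so the call was lost.

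The macrophage-gated cell of library 1 that held 43 Hspa1b UMIs also held 112 Hsph1, 53 Dnaja1, 31 Hspb1, 23 Hspa8 and 12 Hspd1 UMIs. It had 6596 UMIs over 2034 genes, 3.90% of them mitochondrial, and 402 of them (6.09%) were of members, against 0.743% in the other macrophage-gated cells of the library. Its Hsph1 level was 16980 CPM against 40.5 CPM in the other cells, and its Hspa1b level was 6519 against 14.95 CPM. Hsp90ab1 was at 14554 against 2120 CPM. Of the ER members, Hsp90b1 had 6 UMIs (910 against 908 CPM) and Hspa5 had 2 (303 against 977 CPM), while Dnajb9 and Dnajc3 had 2 each (303 against 63.6 and 124 CPM) and Dnajb11 had 1. Its summed level of 17 immediate early genes, which rise within minutes of handling or stimulation, was 8490 CPM against 18386 CPM in the other cells. Across macrophage-gated cells of library 1, leaving out this cell lowered Hsph1 from 53.3 to 40.5 CPM and Hspb1 from 23.0 to 19.4 CPM.

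Among macrophage-gated cells thinned to 1500 UMIs each, 23 of 1200 cells of library 1 (1.92%) and 27 of 1216 of library 2 (2.22%) had a Hspa1b UMI. Low shares stood in T-gated cells of library 1, at 6 of 2202 cells (0.272%), and in neutrophil-gated cells, at 10 of 3559 (0.281%) and 2 of 1469 (0.136%). The last is under the 0.204% that a count of 0 would allow, so these shares are not ordered. Without thinning the macrophage shares were 5.83% and 7.04%, at median depths of 6560 and 6179 UMIs per cell. Without the cell described above, the 22 cells of library 1 with a Hspa1b UMI had 4 Hsph1 UMIs (121 CPM) against 31.2 CPM in the 1177 cells without, and 545 against 339 CPM for Dnaja1, but 1879 against 2100 CPM for Hsp90ab1. In library 2, the log2 ratio of cells with over cells without was 0.69 (-1.62 to 2.29) for Hsph1, from 3 UMIs, and 0.23 (-0.56 to 0.92) for Dnaja1. There it was 1.00 (0.64 to 1.33) for Hspa5 and 0.67 (0.22 to 1.09) for Hsp90b1. Dnajb1 had 182 against 73.6 CPM in library 1 without the cell described above, and 0.79 (-0.54 to 1.87) in library 2. In library 1, with that cell kept, Hspa5 had -0.14 and Hsp90b1 -0.63. Hsph1, Dnaja1 and Dnajb1 were thus higher in both libraries, on few UMIs and with library 2 intervals that included 0. Hspa5 and Hsp90b1 were higher in library 2 only.

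**Figure D3:**
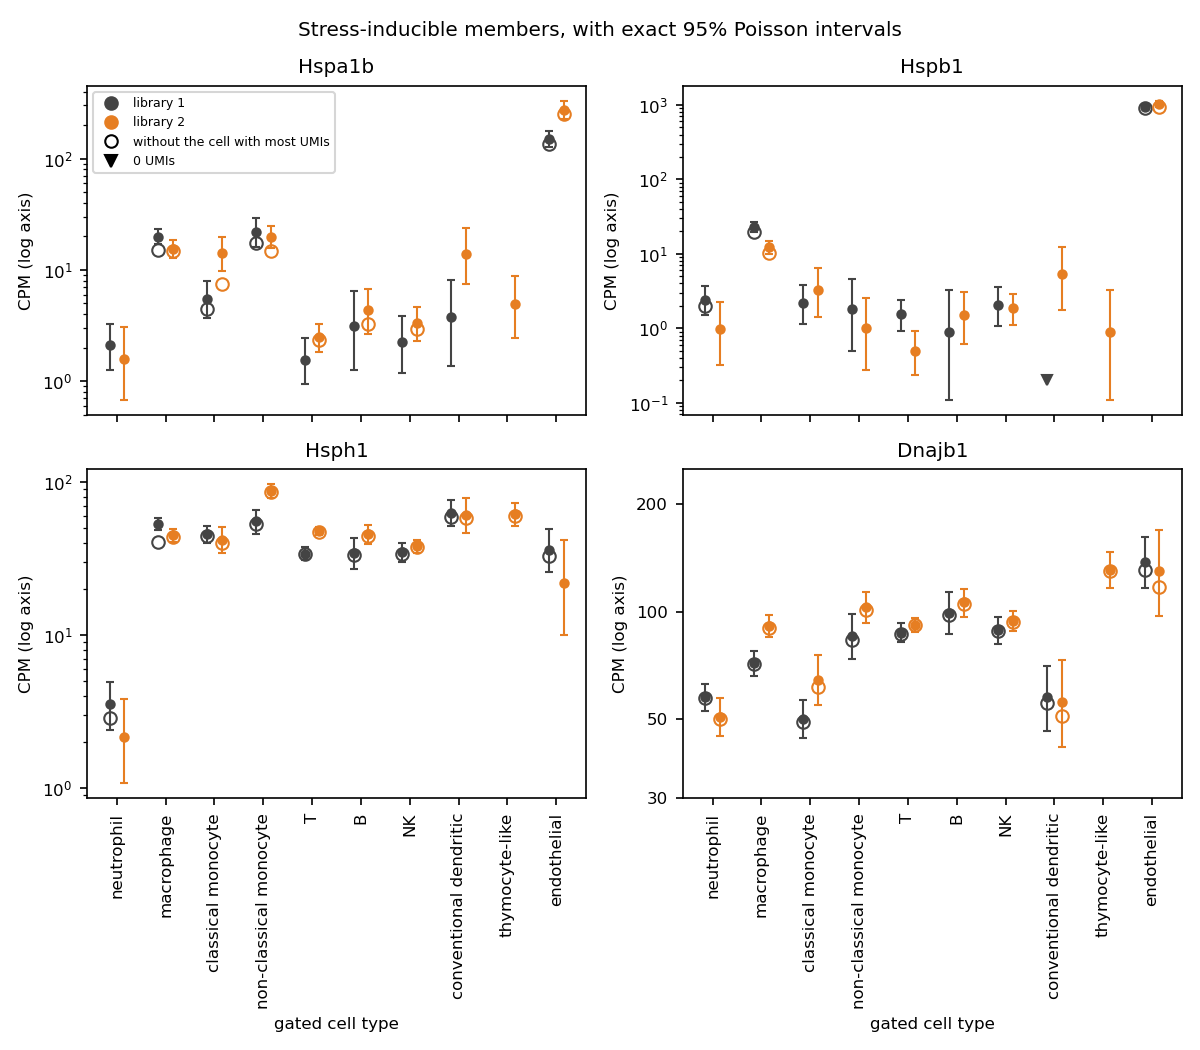
Levels of Hspa1b, Hspb1, Hsph1 and Dnajb1 (CPM, log axes) by gated cell type, with library 1 in grey and library 2 in orange; bars are exact 95% Poisson intervals and open circles leave out the 1 cell with the most UMIs of that gene. Hspa1b and Hspb1 are highest in endothelial-gated cells, Hsph1 is lowest in neutrophil-gated cells, and Dnajb1 varies least.

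Hspb1 (HSP27), a small heat shock protein of actin and muscle cells, was near the limit of detection in most leukocytes, with 0.497 to 3.30 CPM in 6 types. Macrophage-gated cells had 23.0 and 12.3 CPM. In library 1, 16 of 1269 macrophage-gated cells had 3 or more Hspb1 UMIs and held 141 of the 200 UMIs, and 1 of these 16 (6.25%) had a UMI of an endothelial or fibroblast marker, against 153 of 1196 cells (12.8%) without Hspb1. In library 2, 6 cells held 43 of 100 UMIs, and 2 of them had such a marker UMI, against 235 of 1208 cells (19.5%) without Hspb1. Hspb8, Hspb7, Hspb6 and Hspb2 stayed at or under 3.62 CPM in all 7 types.

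Endothelial-gated cells, which a CD45 sort should not hold, had 23.2 and 63.5 CPM of Ptprc (the CD45 gene) against 504 to 1999 CPM in the 7 leukocyte types, and their 5 measured endothelial markers summed to 15178 and 17054 CPM. With 101 and 39 cells from these sorts, they stand for the endothelial cells that passed the sort and not for the endothelium of the heart. Of 34 members with at least 50 UMIs in them, 6 were at least 2-fold above the median of the 7 leukocyte types in both libraries, against 25.6% of all genes, and 0 were below (2.54%). Hspb1 had 934 and 1028 CPM, with 1006 and 421 UMIs, and no single cell held more than 21.4% of them. The 6 listed cardiomyocyte markers summed to 267 and 476 CPM in these cells, against at most 55.2 CPM in the 7 leukocyte types, and the 3 erythroid markers to 2650 and 10915 CPM. The part of either in the Hspb1 level was not tested. Hspa12b, an atypical HSP70 of endothelium, had 138 and 139 CPM and at most 0.980 CPM in the 7 leukocyte types. Hspa1b had 150.4 and 273 CPM, Dnaja1 964 and 1221 CPM, and Dnajc10, an ER J-protein that reduces disulfides, 176 and 103 CPM. The sixth was Hspa2, with 65.0 and 90.3 CPM, near its level in NK-gated cells. Hsph1 was not high with the other stress-inducible members, at 36.2 and 22.0 CPM. Immediate early genes summed to 31168 and 39558 CPM in these cells, above the 8638 to 24405 CPM of the 7 leukocyte types, and their part in the Hspa1b and Dnaja1 levels was not tested.

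Thymocyte-like cells were compared with T-gated cells of the same library, as library 1 had none; a gate filled by 1 library cannot be told apart from that library. Of 39 members, 3 were at least 2-fold higher in thymocyte-like cells, against 10.3% of all genes, and 1 was lower, against 6.2%. Dnajc9, which delivers histones H3 and H4 to chromatin, had 232 against 82.0 CPM over all cells of each gate, dividing cells included. Hspb11 (Ift25) had 112 against 17.2 CPM, and Hspa2 had 39.5 against 12.97 CPM. Dnajc1 was the lower one, with 74.0 against 179 CPM. Dnajc2, which sits on ribosomes with Hspa14, had its highest value of all gates with 200 or more cells here, at 315 CPM, as did Hspa14 itself at 106 CPM.

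Dividing cells were compared with the other cells of the same gate. Cells were called dividing when at least 2 of 5 division genes had a UMI at 1500 UMIs per cell, which took 69 of 2202 T-gated cells in library 1, 142 of 3520 in library 2 and 76 of 478 thymocyte-like cells. The rule sits on a narrow edge: 39, 82 and 36 of these had exactly 2 such genes, and 145, 274 and 33 other cells had 1. Dnajc9 stood at 357 CPM in dividing against 75.6 CPM in other T-gated cells of library 1, at 202 against 61.2 CPM in library 2 and at 526 against 68.0 CPM in thymocyte-like cells. Hspa14 stood at 145 against 38.1, 122 against 43.6 and 184 against 56.4 CPM in the same order. In library 2 cells not called dividing, at 1500 UMIs each, Dnajc9 thus had 68.0 CPM in thymocyte-like and 61.2 CPM in T-gated cells. Over all cells of these 2 gates, without thinning, it had 232 and 82.0 CPM. The thinned values left out 230 thymocyte-like and 154 T-gated cells with under 1500 UMIs, so the 2 pairs are unlike measures. The part of dividing cells in the difference between 232 and 82.0 CPM was not tested. At 1.5-fold in both libraries, 4 of 50 members were higher in dividing T-gated cells (Dnajc8, Dnajb11, Dnajc9, Hspa14), against 8.02% of all genes, and 1 was lower (Dnajc30, from 0 and 1 UMIs in dividing cells), against 7.42%. The share of members higher in T-gated cells was thus near that of all genes. In thymocyte-like cells, present in library 2 only, the 1.5-fold rule was applied in that library alone. There 5 of 23 were higher (17.2% of all genes) and 3 lower (29.3%). Hspd1 was among the 5 higher ones, with 298 against 172 CPM, as were Hsp90aa1 and Dnajc19. In NK-gated cells, with 25 and 36 dividing, 5 of 45 members were higher (Hspd1, Hsp90aa1, Dnajc9, Hspa14, Hspbp1), against 6.17%, and 3 lower, against 14.7%. The 3 lower calls (Dnajb14, Dnajc25, Dnajc5) came from at most 1 UMI per library in dividing cells, and that of Hspbp1 from 2 and 3. Among the higher calls, intervals included 0 for Hspbp1 in both libraries, Hspd1 in library 1, and Hsp90aa1 and Hspa14 in library 2. In macrophage-gated cells, with 27 and 48 dividing, 3 of 45 were higher (Hspa4, Dnaja2, Dnajc9), against 6.5%, and 5 lower (Dnajb9, Hspa13, Hspa2, Dnajc17, Hspb1), against 10.8%. Of the 3 higher calls, Dnaja2 had intervals that included 0 in both libraries, and Hspa4 and Dnajc9 had one in library 2. The 5 lower calls came from few UMIs in dividing cells, and all their intervals included 0. Dnajb9 had 1 and 3 UMIs there, Hspa13, Hspa2 and Dnajc17 each 0 and 1, and Hspb1 0 in both libraries. Hspa14 had 0 UMIs in the 27 dividing macrophage-gated cells of library 1 and 139 against 46.2 CPM in library 2.

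A second axis within types was the level of immediate early genes (17 genes such as Fos, Jun, Egr1 and Atf3), given here because digestion was at 37 °C. Cells at 1500 UMIs each were ordered by their immediate early UMIs, and the upper 25% were set against the lower 25% within each gate and library. In macrophage-gated cells of library 1 the lower 25% ended at 12 such UMIs and the upper 25% began at 40, with 30 and 11 cells exactly at these values, so the score is a range and not a class. Dnajb1 stood at 37.8 CPM in the lower and 131 CPM in the upper cells of library 1, and at 43.9 and 160 CPM in library 2. Dnaja1 stood at 191 and 524 CPM in library 1 and at 208 and 522 CPM in library 2. Dnajb4, a J-protein close to Dnajb1, stood at 17.8 and 68.9 CPM and at 21.9 and 76.8 CPM. All 3 J-proteins were therefore over 2-fold higher in the upper cells of both libraries.

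Other chaperone families differed among themselves along this axis in macrophage-gated cells. Hspa8 had a log2 ratio of 0.06 (-0.17 to 0.30) in library 1 and -0.01 (-0.26 to 0.24) in library 2, upper over lower. Hsp90ab1 had -0.07 (-0.21 to 0.06) and 0.07 (-0.07 to 0.21), and Hsph1 0.19 (-0.94 to 1.34) and -0.08 (-1.09 to 0.93), intervals that reached past 1.5-fold on both sides. Hspe1 went the other way, at -1.81 (-2.99 to -0.76) and -0.96 (-1.87 to -0.10), and its mitochondrial partner Hspd1 had -0.49 and -0.55 with intervals that reached 0. Hsp90aa1 had 0.53 (-0.09 to 1.17) and 0.69 (0.01 to 1.39). Hspa1b had 0 UMIs in the lower and 11 in the upper cells of library 1, and 5 and 9 in library 2. Of the ER members, Dnajb9 was higher (1.71 and 1.64), and Hspa5 had 0.48 and 0.79. At 1.5-fold in both libraries, 5 of 33 members were higher in the upper cells (Dnaja1, Dnajb1, Dnajb4, Dnajb9, Hspa2), against 7.6% of all genes, and 2 were lower (Hspe1, Dnajc9), against 4.18%. Whether the upper and lower cells are the same subsets of macrophages was not tested.

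**Figure D4:**
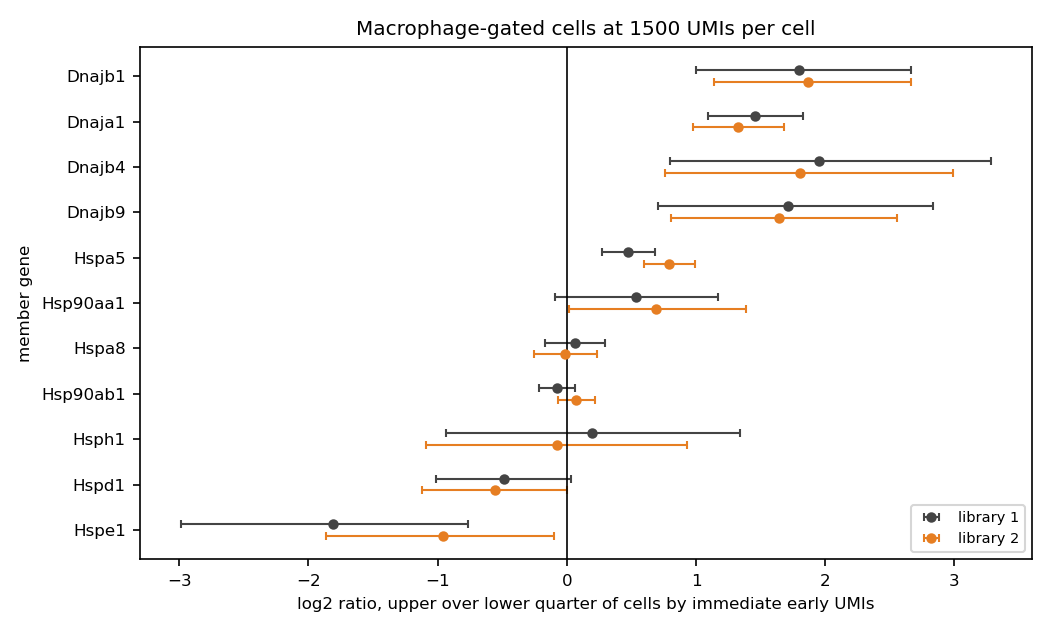
Log2 ratio of CPM in the upper 25% over the lower 25% of macrophage-gated cells by immediate early UMIs (horizontal axis), per member and library, with exact 95% intervals that cover counting error only. Dnajb1, Dnaja1, Dnajb4 and Dnajb9 lie above 0 in both libraries, Hspa8 and Hsp90ab1 lie at 0, and Hspe1 lies below 0.

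In T-gated cells 3 of 43 members were higher in the upper cells (Hspa5, Dnajb4, Hspa2), against 3.63% of all genes, and 0 were lower, against 0.779%. Dnaja1 stood at 328 and 531 CPM in library 1 and at 405 and 592 CPM in library 2, short of 1.5-fold in library 2. In neutrophil-gated cells 3 of 26 members were higher (Hspa5, Hsp90aa1, Dnajb9), against 4.45%, and 0 were lower, against 1.69%. Hspa5 stood there at 397 and 750 CPM in library 1 and at 363 and 679 CPM in library 2, while Dnaja1 had 703 and 784 CPM in library 1 and 654 and 594 CPM in library 2. The log2 ratios of Dnaja1 in neutrophil-gated cells, 0.16 (0.03 to 0.29) and -0.14 (-0.36 to 0.08), differed in sign. Classical monocyte-gated cells had 0 of 15 members higher (5.01% of all genes) and 0 lower (2.13%), and non-classical monocyte-gated cells 0 of 22 higher (1.81%) and 0 lower (1.24%). B-gated cells had 1 of 31 higher (Dnajb4, 2.58%) and 0 lower (1.17%), and NK-gated cells 1 of 37 higher (Hspa2, 3.18%) and 1 lower (Dnajc15, 1.67%).

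Between the libraries, most members differed little within a cell type. A member was called when its ratio of CPM + 10 was at least 1.5-fold, and 7 of 341 pairs of member and cell type passed, 3 higher in library 2 and 4 higher in library 1. Higher in library 2, the background over all genes was 2.65% in neutrophil-gated, 2% in macrophage-gated, 4.46% in classical monocyte-gated, 3.42% in non-classical monocyte-gated, 0.612% in T-gated, 0.877% in B-gated and 1.5% in NK-gated cells. Higher in library 1, it was 3.29%, 0.598%, 2.64%, 2.96%, 0.494%, 0.681% and 0.858% in the same order. Macrophage-, T-, B- and NK-gated cells had 0 members called of 56, 55, 46 and 52. The extremes there were Hspb1 in macrophage-gated cells, at a log2 ratio of -0.56, and Dnajc24 in B-gated cells, at 0.54. Since neither library is tied to a group, the sign of a ratio says nothing about the patch.

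The 4 calls higher in library 1 were all ER members, 3 of them in classical monocyte-gated cells. Hsp90b1 had 1214 CPM in library 1 and 723 CPM in library 2, a log2 ratio of -0.74 (plain ratio -0.75, -0.82 to -0.67). Dnajb11, a soluble ER J-protein that serves BiP, had 145 and 83.0 CPM, and Dnajc3, another one, 200 and 120 CPM. Hspa5 had 1368 and 939 CPM and was not called. Of 37 other pathway genes considered in these cells, 7 were also higher in library 1 by the same rule (2.64% of all genes, as above) and 0 in library 2. They were Fkbp5, Hyou1 (117 and 63.2 CPM), Pdia4 (127 and 71.9), Pdia6 (479 and 268), Manf (333 and 217), Creld2 (97.0 and 38.0) and Xbp1 (62.6 and 31.8). Of these, Fkbp5 was also called higher in library 1 in macrophage-, non-classical monocyte-, B- and NK-gated cells. ER genes of the list that were not called included Pdia3 (621 and 428 CPM), Sdf2l1 (182 and 127), Herpud1 (68.5 and 58.7) and Sec63 (99.9 and 84.3). The classical monocyte gate of library 2 held 327 cells against 678, and the part of its makeup in these ratios was not tested. Of the promoters printed above with ER stress response elements, those of Hsp90b1 and Dnajc3 belong to called members and that of Hspa5 does not. Dnajb11 and Dnajc10, the other ER members called higher in library 1, had no such element in the 250 bases searched.

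The other calls were single members. Hspa1b had 5.51 and 14.0 CPM in classical monocyte-gated cells, and 16 of its 34 UMIs in library 2 came from 1 cell, without which it had 7.45 CPM; with stricter gates its log2 ratio turned from 0.63 to -0.44. Dnajc17, a nuclear J-protein, had 13.4 and 25.2 CPM in the same cells, just past the limit with a log2 ratio of 0.59. Dnajc10 had 29.4 and 13.7 CPM in neutrophil-gated cells. Dnaja1 had 352 and 543 CPM in non-classical monocyte-gated cells, and Hsph1, with 55.5 and 87.2 CPM, lay just under the limit there. Chordc1, an HSP90 cochaperone that is no member, had 43.2 and 81.2 CPM in these cells and was called. With TMM scaling within cell types, none of the 3 pairs higher in library 2 passed 1.5-fold.

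As a sum, the stress-inducible members were higher in library 2 in 6 of the 7 types and lower in neutrophil-gated cells. In neutrophil-gated cells library 1 had 817 CPM, with an interval of 799 to 836, and library 2 had 697 CPM, with 674 to 720. Non-classical monocyte-gated cells had 624 (591 to 658) and 874 CPM (845 to 904), classical monocyte-gated cells 472 (454 to 490) and 572 CPM (542 to 603), T-gated cells 684 (670 to 699) and 752 CPM (741 to 765), and NK-gated cells 617 (597 to 637) and 713 CPM (697 to 730). In macrophage-gated cells (637 and 667 CPM) and B-gated cells (670 and 697 CPM) the intervals of both libraries overlapped. These intervals hold no spread between animals, so a difference between them is one of these 2 libraries only. Dnaja1, the member of this group with the most UMIs, by itself differed in the same direction as the sum in all 7 types. It had 723 and 611 CPM in neutrophil-gated and 352 and 543 CPM in non-classical monocyte-gated cells. In classical monocyte-gated cells it had 245 and 324 CPM, and in NK-gated cells 383 and 465 CPM. A sum without Dnaja1 is not compared between the libraries here. Immediate early genes summed to 24405 and 22043 CPM in neutrophil-gated cells, 9806 and 11691 CPM in NK-gated cells and 18301 and 18356 CPM in non-classical monocyte-gated cells. Their part in the member sums was not tested.

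**Figure D5:**
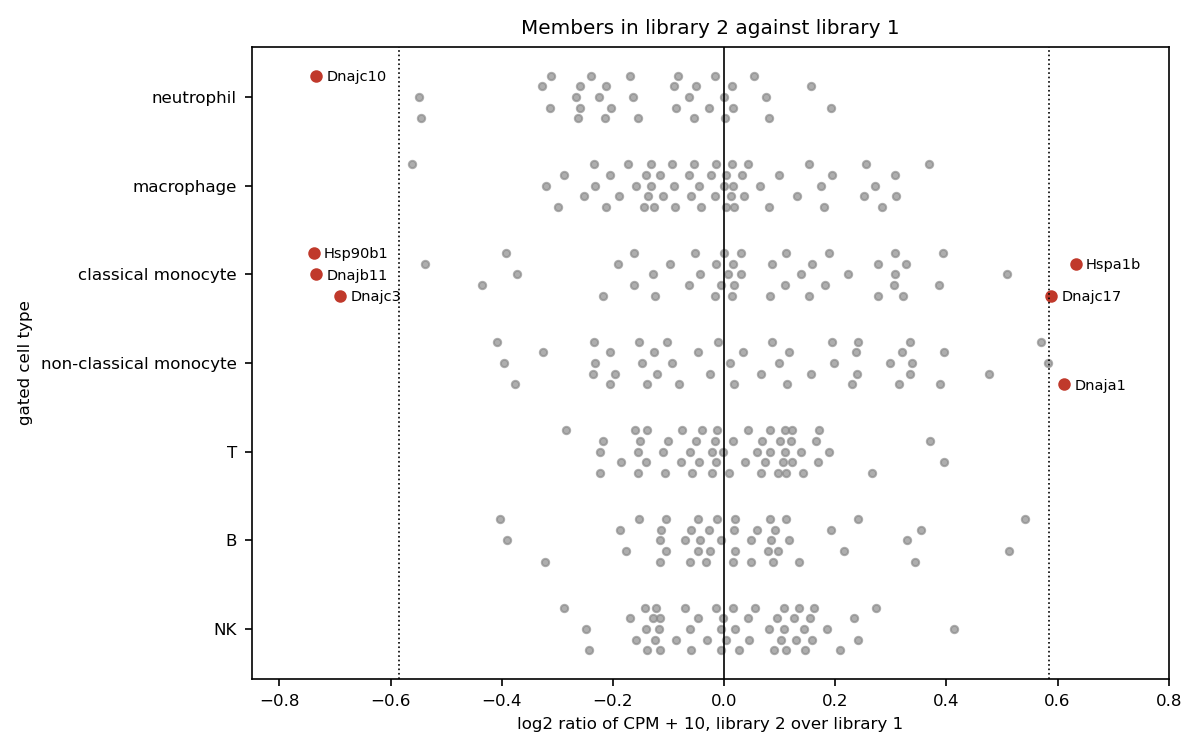
Log2 ratio of CPM + 10, library 2 over library 1 (horizontal axis), for each member with at least 50 UMIs in each of the 7 cell types; points are spread vertically for display only. Dotted lines mark 1.5-fold, and the 7 pairs past them are red and named, most of them in classical monocyte-gated cells with Hsp90b1, Dnajb11 and Dnajc3 on the side of library 1.

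The 65 members are accounted for as follows. The 35 with a mean of at least 20 CPM over the 7 types include all members described for neutrophils, together with Dnajc7, Dnajc10, Dnajc13, Dnajc17, Dnajb2, Dnajb12, Dnajb14 and Hspbp1. Hspbp1, an exchange factor of HSP70, had 2.65 and 4.89 CPM in neutrophil-gated and 22.0 to 44.2 CPM in the other 6 types. Dnajb12, an ER membrane J-protein, and Dnajc7, a cofactor of both HSP70 and HSP90, were highest in B-gated cells in both libraries, with 96.9 and 84.6 CPM for Dnajb12 and 151 CPM in library 1 for Dnajc7. Dnajb2, known from neurons, was highest in neutrophil-gated cells, with 33.7 and 38.7 CPM against 15.4 to 33.3 CPM elsewhere. Among the 30 members below that mean, Dnajc5 (cysteine string protein), Dnajc14, Dnajc25, Hspbap1, Dnajc16, Dnajc30, Dnajc4, Dnajc11 and Dnaja3 stayed between 0.979 and 29.3 CPM in every type. Dnaja4 had 12.7 and 14.8 CPM in NK-gated and 8.33 and 9.10 CPM in T-gated cells and at most 4.14 CPM elsewhere, and Dnajc12 was highest in non-classical monocyte-gated cells, at 15.9 and 22.7 CPM. Dnajc18 and Dnajc24 were highest in T-gated cells in both libraries, and Dnajc27 in B-gated cells. Hspa4l, a stress-inducible HSP110, stood at 4.57 CPM or less in the 7 types and at 13.9 CPM in thymocyte-like cells. Dnajb3, Dnajb5, Dnajb13 and Dnajc28 stayed at or under 7.15 CPM in all 7 types.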

How the data were processed

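The deposited matrix holds UMI counts per gene and barcode, which the authors made with Cell Ranger (version 4.0.0 in the file headers). Build and cell-calling settings: not given in the sources used here. Rows of 1 symbol were summed (32623 rows, 26976 symbols). Barcodes with under 200 genes or over 20% mitochondrial UMIs were left out (315 of library 1, 235 of library 2), as were doublets called by Scrublet in scanpy 1.11.5 with 8% expected (634 and 997, 4.54% and 6.46%). Gates required UMIs of at least 2 own markers (3 for B, NK and fibroblast), and for neutrophils also 1% of UMIs from S100a8 and S100a9, for both monocyte gates 10 Lyz2 UMIs, and for monocytes, T and NK limits on each other's markers. Cells in more than 1 gate (773 and 893) and in none (1987 and 1504) were not analysed. Counts were summed per gate and library, with numpy 2.4.6 and scipy 1.17.1. Intervals for ratios are exact conditional binomial intervals. A deposited table of 33756 barcodes shares 111 with the matrix and was not used. The ratio rule was tested on simulated data. Members, lists and gates were chosen with earlier results of these data known. Named members are up to 6 per group by UMIs, those past a fold rule, and those near the 50 UMI limit; others were named after their values were seen. Alternatives were called doublets kept, 10% mitochondrial UMIs, stricter gates, other totals, pseudocount 1 CPM, TMM scaling, other folds and minimums, 1000 UMIs or no thinning, and, chosen after seeing the data, other totals, filters and gates for counts between cell types and leaving out single cells.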

Additional observations from a re-analysis of the deposited data

How the results depend on the processing

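The sum over all members in neutrophil-gated cells was 3131 and 2648 CPM in libraries 1 and 2 with called doublets kept, and 3169 and 2692 CPM without ribosomal protein and mitochondrial genes in the total, which put the median of the other 6 types at 9574 and 9446 CPM (8005 CPM in library 1 with stricter gates). The count of 24 members below in neutrophil-gated cells ran from 22 to 26 over the 5 alternatives, all chosen after seeing the data. The ratio of the other types to neutrophils for the stress-inducible sum was 2.75 in library 1 (reversed) and 3.34 in library 2 without Dnaja1. Without Hsp90ab1 the constitutive ratio was 2.28 and 3.21, and without Hspa5 the ER ratio was 2.80 and 3.16. With doublets kept, the constitutive ratio was 4.40 and 5.87, the ER ratio 2.01 and the mitochondrial ratio 6.36 in library 1. With stricter gates, library 1 gave 4.52 for the constitutive and 2.12 for the ER ratio. Between libraries, a pseudocount of 1 CPM gave 12 pairs higher in library 2 and 10 in library 1, TMM scaling gave 0 higher in library 2, and stricter gates gave 6. Hspa1b in classical monocyte-gated cells reversed to a log2 ratio of -0.44 with stricter gates. TMM scaling left Dnajc17, Hspa1b and Dnaja1 just short of 1.5-fold (0.53, 0.58 and 0.58). The 8 pairs of member and cell type at 2-fold above other types became 35 at 1.5-fold. Shares over all genes at these other settings are not given here, so these counts of pairs show the dependence on settings only. Shares of macrophage-gated cells with a UMI follow depth: for Dnajb1 (10.5% and 13.2% at 1500 UMIs) they were 33.9% and 37.6% without thinning and 6.47% and 8.76% at 1000 UMIs, and for Hspa1b 5.83% and 7.04% without thinning and 1.43% in library 2 at 1000 UMIs. The cause of each shift was not tested. No paired analysis was possible because each group has 1 sample and the suffixes carry no group. Depth limits members under about 10 CPM, where few UMIs lie behind each level.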
